A study of Mus musculus with 20 samples.

Results

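Respiratory complex I was followed through the nuclear genes whose symbols start with Nduf, across fasting and loss of Phf6 in AgRP neurons. The symbol rule found 45 of the 23129 rows of the count table. Of these, 38 encode subunits (the Ndufa, Ndufb, Ndufc, Ndufs and Ndufv families) and 7 encode assembly factors (Ndufaf1 to Ndufaf7). AgRP neurons are hypothalamic cells that make agouti-related peptide and drive feeding. They were isolated as red fluorescent cells, 1000 per sample, from C57BL/6 mice aged 25 to 30 days. The 20 libraries formed 4 groups of 5, namely fasted cKO, fed cKO, fasted wild type and fed wild type. The cKO mice had the genotype Phf6 flox/y; AgRP-Cre/+; Ai9/+, so Phf6, which lies on the X chromosome and encodes a protein of chromatin, was floxed and Cre recombinase was driven from the AgRP locus. Wild-type littermates were AgRP-Cre/+; Ai9/+ and thus carried the same Cre and the same tdTomato reporter (Ai9). Fasted mice had water but no food from 5 pm of the day before, and the others were fed. The labels do not say whether each library came from its own mouse, so errors and p-values measure the spread between these samples, which may be technical.

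Complex I takes electrons from NADH, passes them along a chain of iron-sulphur clusters to ubiquinone and pumps protons across the inner mitochondrial membrane. It is L-shaped, with a matrix arm that carries out the electron transfer and a membrane arm that pumps. A small set of core subunits does the catalysis. Those of the matrix arm, among them Ndufv1, Ndufv2 and Ndufs1, are nuclear-encoded, and those of the membrane arm come from mitochondrial DNA. The other subunits, called accessory, surround the core and are needed for its stability. Assembly factors bind intermediates and leave before the complex is complete. In neurons complex I is a main entry point of electrons for the ATP that signalling uses.

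Promoters of 4 members are shown because these genes mark the main patterns described below. Ndufa12 had the smallest p for fasting in wild type among the members, Ndufb2 was called higher with fasting in both genotypes, and Ndufaf4 and Ndufaf7 differed in their fasting response between genotypes. Each window runs from 250 bases before to 50 bases after the RefSeq gene start, read 5′ to 3′ on the plus strand of GRCm38.p6. Capitals mark matches to the motifs searched. The windows are chr10:94198785-94199084 (Ndufa12), chr6:39592315-39592614 (Ndufb2), chr4:24897833-24898132 (Ndufaf4) and chr17:78936885-78937184 (Ndufaf7).
Ndufa12: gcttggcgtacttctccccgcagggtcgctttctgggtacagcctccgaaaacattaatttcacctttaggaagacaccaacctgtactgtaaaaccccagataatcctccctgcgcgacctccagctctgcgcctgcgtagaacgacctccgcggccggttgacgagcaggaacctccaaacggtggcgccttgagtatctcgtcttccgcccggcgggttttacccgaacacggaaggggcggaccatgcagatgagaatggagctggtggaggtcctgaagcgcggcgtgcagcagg
Ndufb2: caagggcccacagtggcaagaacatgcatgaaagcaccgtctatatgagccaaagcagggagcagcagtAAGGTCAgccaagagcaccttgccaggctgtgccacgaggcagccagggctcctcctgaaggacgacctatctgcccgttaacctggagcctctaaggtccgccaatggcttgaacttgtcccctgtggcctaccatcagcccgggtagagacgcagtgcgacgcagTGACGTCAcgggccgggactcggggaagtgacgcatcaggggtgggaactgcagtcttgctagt
Ndufaf4: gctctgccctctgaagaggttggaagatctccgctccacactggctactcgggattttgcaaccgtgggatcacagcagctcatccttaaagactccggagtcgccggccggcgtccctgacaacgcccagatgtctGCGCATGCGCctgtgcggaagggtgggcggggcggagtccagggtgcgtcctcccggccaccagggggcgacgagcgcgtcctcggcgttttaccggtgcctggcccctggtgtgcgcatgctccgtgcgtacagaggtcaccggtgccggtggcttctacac
Ndufaf7: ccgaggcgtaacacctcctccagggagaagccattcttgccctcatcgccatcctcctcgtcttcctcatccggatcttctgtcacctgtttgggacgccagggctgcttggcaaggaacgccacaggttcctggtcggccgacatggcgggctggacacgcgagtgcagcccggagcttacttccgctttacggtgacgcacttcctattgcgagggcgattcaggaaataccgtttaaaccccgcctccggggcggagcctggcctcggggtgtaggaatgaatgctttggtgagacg
Motifs were searched on both strands as exact letters, with N for any base, and the motifs may overlap in part. RefSeq windows of 300 bases were found for 39 of the 45 members, and those without one include Ndufa2, Ndufa4l2, Ndufaf6, Ndufb9 and Ndufs1. The motif of NRF1, a regulator of nuclear genes for mitochondrial proteins, was searched as GCGCA and GCGC with any 1 base between them and lay in 9 of 39 member windows (23.1%), against 5.19% of the windows of all 27025 genes. The YY1 motif AAGATGGC lay in 7 of 39 (17.9%), against 3.19% of all genes. The ETS motif CCGGAAG was found in 12.8% of members and 9.93% of all genes. The estrogen-related receptor motif AAGGTCA was found in 7.69% of members and 5.38% of all genes. The cyclic AMP response element TGACGTCA was found in 7.69% of members and 2.03% of all genes, and the E-box CACGTG in 5.13% and 8.09%. Among those printed, the Ndufb2 window held the estrogen-related receptor motif at position -181 and the cyclic AMP response element at -14 from the start, and the Ndufaf4 window held the NRF1 motif at -113. The windows of Ndufa12 and Ndufaf7 held none of these letters. A match is a stretch of letters and no measure of binding.

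The libraries held 8542250 to 9282818 counts in fasted cKO, 10604977 to 13573524 in fed cKO, 8494499 to 10000278 in fasted wild type and 11500753 to 13060922 in fed wild type. Tested subunits other than Ndufa4l2 had 941 to 10109 counts per library, assembly factors 251 to 1593 and Ndufa4l2 14 to 98. Phf6, the targeted gene, averaged 61.2 ± 6.90 CPM in fasted cKO, 70.7 ± 4.85 in fed cKO, 128 ± 11.0 in fasted wild type and 276 ± 10.2 in fed wild type (CPM are counts scaled to library size; mean ± SD, n = 5). Its ranges did not overlap between genotypes. Agrp averaged 11310 ± 1548 CPM in fasted cKO, 5066 ± 400 in fed cKO, 14930 ± 2487 in fasted wild type and 4554 ± 185 in fed wild type, and Npy, its partner peptide, 45330, 23470, 53990 and 16670 CPM in the same order. Libraries did not vary evenly within the fasted groups. Deviations from the group mean correlated at -0.09 on average within the sets of replicates 1 and 2 and replicates 3 to 5 and at -0.35 between them in fasted cKO, and at 0.04 and -0.44 in fasted wild type, against -0.25 and -0.25 in each fed group. Where it matters, results are therefore also given with either set alone. The summed AgRP neuron markers lay at 50900 to 69200 CPM in fasted cKO, 27100 to 31700 in fed cKO, 59600 to 84900 in fasted wild type and 21100 to 23200 in fed wild type. Npy and Agrp made up most of each sum, and the other markers of this list did not all move in the same direction. Npy2r had 869 to 1220 counts in fasted and 4466 to 5546 in fed cKO. In wild type Npy2r had 569 to 1020 counts when fasted and 5454 to 6103 when fed. Lepr had 1417 to 2162 counts in fasted and 1005 to 1386 in fed cKO, and 1511 to 2098 and 470 to 776 in wild type. The 7 astrocyte markers summed to 41.7 to 95.9, 29.5 to 61.2, 32.9 to 63.4 and 9.64 to 16.9 CPM in the same group order, and the 6 oligodendrocyte markers to 49.4 to 65.5, 82.6 to 102, 49.1 to 73.5 and 90.5 to 103 CPM. The 7 microglial markers summed to at most 1.84 CPM in any library, and 5 of them never passed 3 counts. The oligodendrocyte sums did not overlap between fasted and fed libraries of either genotype, and the astrocyte sums did not in wild type but did in cKO. Within the astrocyte list Agt had 284 to 695 counts in fasted cKO, 294 to 771 in fed cKO, 229 to 370 in fasted wild type and 45 to 96 in fed wild type, while Gfap had at most 16 counts. Slc1a2 had 10 to 42 counts in fasted and 34 to 49 in fed wild type. Counts of single markers are not scaled to depth here, and depth was lower in the fasted libraries. The Slc1a2 ranges therefore give no direction. Markers of other neurons moved as well. The Pomc neuron list summed to 439 to 1100 CPM in fasted cKO and 379 to 470 in fasted wild type, and in fasted cKO Pomc had 284 and 325 counts in replicates 1 and 2 and 1675, 3890 and 2825 in replicates 3 to 5. Ghrh had 0 and 5 counts in replicates 1 and 2 and 299, 45 and 312 in replicates 3 to 5. The part of these markers in the changes below was not tested. In sorted bulk samples, fewer cells of a type and less RNA per cell cannot be told apart.

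Of the 45 members 44 passed the filter on low counts and were tested, 37 subunits and all 7 assembly factors. The exception was Ndufs5, a membrane-arm subunit with 0 counts in all 20 libraries, which allows at most 0.221 to 0.353 CPM depending on library depth. Of its 50-base transcript stretches 21.7% also occur in BC002163, a processed copy, which was counted at 26.6 ± 3.17 CPM in fasted cKO, 20.2 ± 1.36 in fed cKO, 25.5 ± 4.83 in fasted wild type and 18.4 ± 3.28 in fed wild type. Reads of Ndufs5 and its copy may have been assigned in a way that the files do not record, so its 0 is no measure of its level. Counts are likewise uncertain for 7 members with over 10% of their exon bases inside another gene. These are Ndufaf2 (65.6%), Ndufb6 (39.0%), Ndufa13 (30%), Ndufb9 (19.5%), Ndufb11 (12.9%), Ndufb5 (12.3%) and Ndufa2 (11.5%). The other gene lies on the same strand for Ndufb9 and on the opposite strand for the rest, and the library kit does not mark strand. Ndufa12, Ndufb4, Ndufs3 and Ndufb9 share 17.7%, 18.3%, 16.1% and 15.6% of their 50-base stretches with another gene. No mitochondrially encoded gene is among the rows used, so the membrane-arm core was not analysed here.

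Within fed wild-type neurons, subunit transcripts were more abundant per length than those of assembly factors. Using the median annotated transcript length, the 37 subunits had a median of 374.7 CPM per kb and the 7 assembly factors 58.15 CPM per kb. Using the union of all annotated exons the medians were 159.5 and 27.58 CPM per kb. By median transcript length the order was led by Ndufa4 at 1236 ± 49.0 CPM per kb, followed by the membrane-arm subunit Ndufb8 at 1040 ± 26.0 and the core subunit Ndufv2 at 742.3 ± 21.5 (SD, n = 5). Ndufb9 (690.0 ± 23.2), Ndufa7 (658.2 ± 12.9), Ndufa6 (652.9 ± 28.6) and Ndufab1 (650.6 ± 34.0) came next, and the last 3 of these did not differ beyond their spread. Core subunits other than Ndufv2 lay between 236.5 (Ndufs8) and 374.7 (Ndufs7). The assembly factors ran from Ndufaf3 (148.7 ± 3.97) and Ndufaf7 (145.4 ± 10.8), which did not differ beyond their spread, down to Ndufaf1 (31.65 ± 2.24) and Ndufaf4 (27.05 ± 0.812). The subunits Ndufb7 (70.67 ± 2.18) and Ndufa4l2 (1.828 ± 0.440) lay below the highest assembly factors, and Ndufa4l2 was lowest of all. Ndufb7 has a long median transcript length of 2529 bases. Its 2025 to 2927 counts per library exceeded those of every assembly factor (at most 1593). The order within each class depends on the length used. With the exon union Ndufa1 led the subunits at 570.6 CPM per kb. The assembly factors then spanned 11.99 to 56.42 CPM per kb in a different order.

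Fasting of wild-type neurons was accompanied by higher transcript levels of most complex I subunits. Of the 37 tested, 33 rose, 2 fell and 2 did not pass (edgeR quasi-likelihood test, adjusted p under 0.05), while 29.6% of all 13237 tested genes rose and 31.3% fell (60.9% in either direction). The median log2 fold change of the subunits was 0.60, against -0.03 for all tested genes. By group non-overlap, 33 subunits had all 5 fasted libraries above all 5 fed ones and 1 had them below, where the shares of all genes were 22.5% and 22.6%. Of the 30 subunits outside the core, which include Ndufa4 and Ndufa4l2, 29 rose and none fell (Ndufa10 did not pass), with a median of 0.64. Of the 7 core subunits 4 rose, 2 fell and 1 did not pass, with a median of 0.26, and the difference between these classes was not tested. With an offset for GC content and exon length the core median was 0.22 (5 higher, 2 lower), that of all subunits 0.24 and that of all tested genes 0.01. In the membrane arm 17 of 18 rose (median 0.63), and in the matrix arm 13 of 16 rose and 2 fell (median 0.46).

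**Figure D1:**
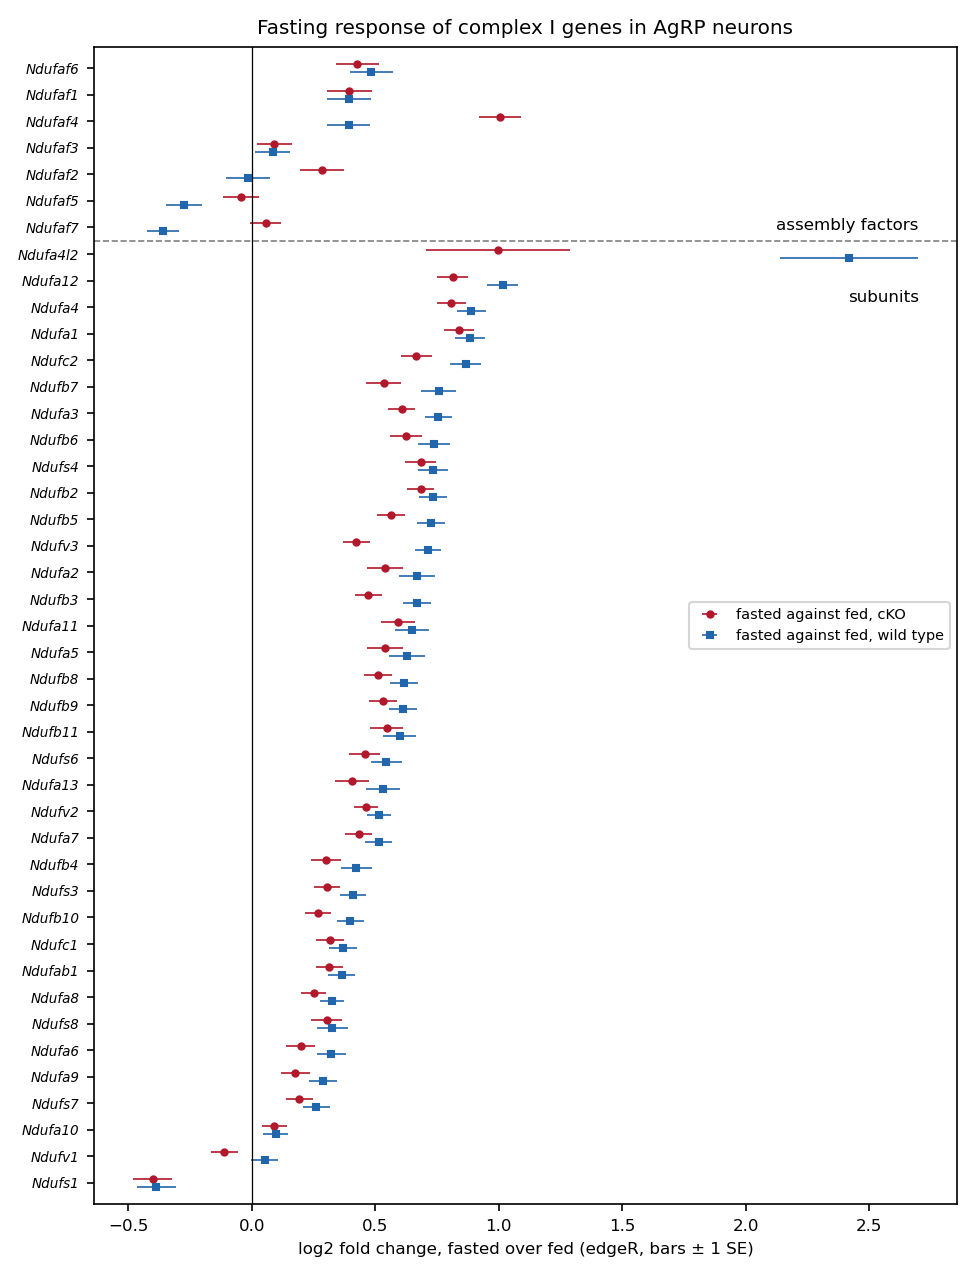
Log2 fold change with fasting (horizontal axis, edgeR, bars ± 1 SE) of tested complex I genes, in cKO (red circles) and in wild type (blue squares), with assembly factors above the dashed line. Most subunits lie right of 0 in both genotypes, Ndufs1 lies left of it in both, and Ndufaf4 at 1.01 in cKO and 0.39 in wild type has the widest gap among the assembly factors.

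Among the core subunits that fell was Ndufs1, a carrier of several iron-sulphur clusters. It had 144, 134, 166, 181 and 201 CPM in fasted wild type (replicates 1 to 5), against 198, 215, 220, 227 and 222 in fed wild type. The groups overlapped by replicate 5 of the fasted libraries, and the fall was 0.39 on the log2 scale (-0.39 ± 0.080, edgeR adjusted p = 1.27e-04). With replicates 1 and 2 alone it was -0.655 and with replicates 3 to 5 alone -0.24.

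Of the core subunits 4 rose and 1 did not pass. Ndufv2, an iron-sulphur subunit of the NADH-oxidizing tip, had 924, 904, 808, 818 and 856 CPM in fasted wild type, against 589, 616, 598, 627 and 588 in fed wild type (log2 fold change 0.51 ± 0.050, edgeR adjusted p = 7.27e-10). The groups did not overlap. Ndufs3, Ndufs8 and Ndufs7, all of the part that passes electrons to ubiquinone, rose by 0.41 ± 0.053, 0.32 ± 0.063 and 0.26 ± 0.053 (edgeR adjusted p = 1.31e-07, 6.04e-05 and 1.05e-04), with no overlap between the groups. Ndufv1, which binds NADH and flavin, had 206, 201, 245, 231 and 234 CPM in fasted and 221, 220, 212, 216 and 210 in fed wild type (0.05 ± 0.054, edgeR adjusted p = 0.423). Its fasted replicates 1 and 2 lay below every fed library and replicates 3 to 5 above every one, and it passed with replicates 3 to 5 alone (0.14) and with both GC and length offsets described below (0.22 and 0.16).

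**Figure D2:**
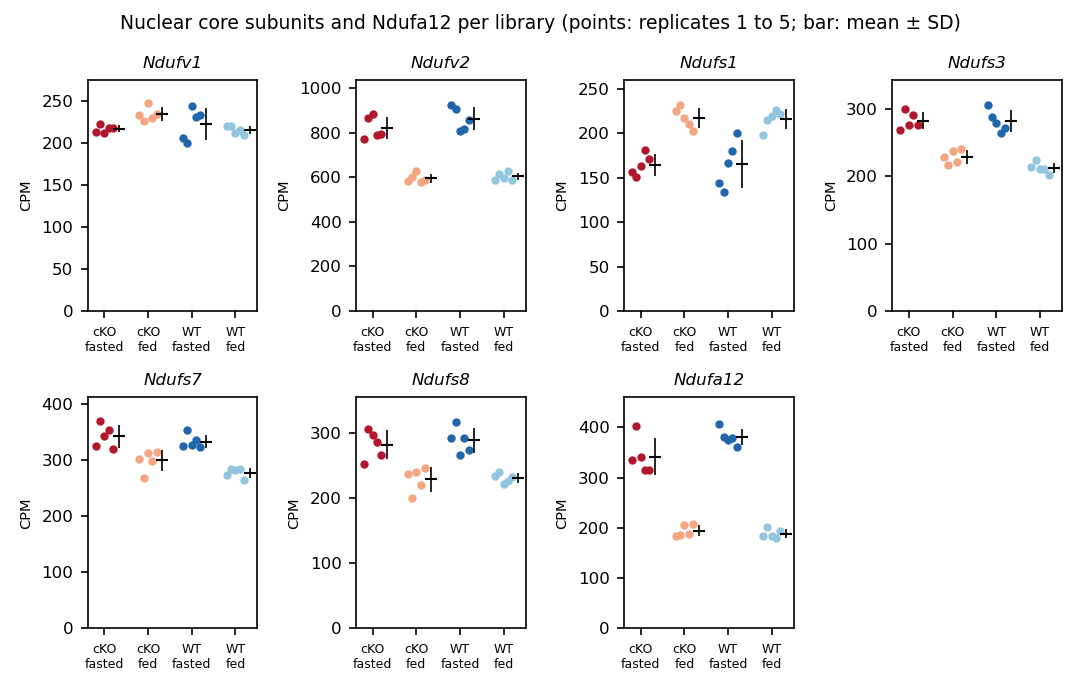
CPM of nuclear core subunits and the accessory subunit Ndufa12 in each of the 20 libraries (points, replicates 1 to 5 from left to right within a group; bars, mean ± SD, n = 5), with axes from 0. Ndufs1 is lower and Ndufv2, Ndufs3, Ndufs7, Ndufs8 and Ndufa12 higher in fasted than in fed libraries of either genotype by group means, and Ndufv1 stays between 201 and 248 CPM throughout.

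Outside the core, the subunits with the smallest p-values in wild type included Ndufa12, Ndufa1, Ndufa3 and Ndufc2. Ndufa12, a matrix-arm subunit that in human cells takes the place of the assembly factor NDUFAF2 late in assembly, had 407, 382, 376, 379 and 362 CPM in fasted libraries, against 184, 202, 183, 179 and 194 in fed ones. Every fasted value was at least 362.0 and every fed value at most 202.4, a 2.02-fold difference (95% interval 1.86 to 2.20; log2 fold change 1.02 ± 0.063, edgeR adjusted p = 7.55e-14). Ndufa1, a small membrane-arm subunit, had 502, 480, 422, 389 and 412 CPM in fasted and 234, 247, 241, 236 and 236 in fed wild type (0.88 ± 0.060, edgeR adjusted p = 6.86e-13). Ndufc2 (0.87 ± 0.063, edgeR adjusted p = 2.36e-12) and Ndufa3 (0.76 ± 0.054, edgeR adjusted p = 1.79e-12), both of the membrane arm, rose without overlap as well, as did Ndufv3 of the matrix arm (0.71 ± 0.054, edgeR adjusted p = 5.30e-12). Ndufab1, the mitochondrial acyl carrier protein that sits in both arms and also serves lipoic acid synthesis, rose by 0.36 ± 0.054 (edgeR adjusted p = 1.40e-06), but did not pass with the GC and median transcript length offset (0.075, edgeR adjusted p = 0.253). Ndufa10, a membrane-arm subunit related to nucleoside kinases, had 261, 256, 293, 278 and 292 CPM in fasted and 253, 269, 252, 261 and 256 in fed wild type, and the groups overlapped (0.10 ± 0.051, edgeR adjusted p = 0.104).

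Carrying an Nduf name, Ndufa4 and Ndufa4l2 are now counted with complex IV. Ndufa4 had 1182, 1124, 1088, 1007 and 956 CPM in fasted wild type, against 555, 616, 580, 574 and 567 in fed wild type, with no overlap (0.89 ± 0.059, edgeR adjusted p = 4.24e-13). Its paralogue Ndufa4l2, known as a target of the hypoxia factor HIF-1, was the member with the lowest level per length. It had 7.25, 9.30, 9.65, 11.0 and 8.5 CPM in fasted and 1.38, 2.23, 1.21, 1.79 and 1.93 CPM in fed wild type, a 5.34-fold difference (95% interval 3.65 to 7.81; 2.42 ± 0.280, edgeR adjusted p = 2.02e-08). Every fasted wild-type library lay above every fed one.

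Assembly factors split in fasted wild-type neurons: 3 of 7 rose, 2 fell and 2 did not pass, with a median of 0.08, near the 29.6% and 31.3% of all genes. With the GC and exon length offset 1 rose and 2 fell, where 4088 of all 13237 tested genes rose and 3761 fell. Ndufaf6, an early factor of the ubiquinone-binding part, rose by 0.48 ± 0.086 (edgeR adjusted p = 2.14e-05), from libraries at 41.7, 48.8, 38.6, 41.2 and 45.6 CPM when fasted and 30.5, 32.7, 31.5, 27.4 and 32.1 CPM when fed. Ndufaf1, a factor of the membrane arm, rose by 0.39 ± 0.090 (edgeR adjusted p = 4.06e-04), and Ndufaf4 by 0.39 ± 0.086 (edgeR adjusted p = 2.67e-04). None of these 3 had overlapping groups, but with the GC and exon length offset Ndufaf1 (0.035, edgeR adjusted p = 0.74) and Ndufaf6 (0.156, edgeR adjusted p = 0.145) did not pass. Ndufaf7, a methyltransferase of the mitochondrial matrix, had 86.3, 94.5, 85.9, 82.7 and 80.8 CPM in fasted and 107, 111, 103, 124 and 107 CPM in fed wild type. Its fasted libraries all lay below its fed ones (-0.36 ± 0.064, edgeR adjusted p = 1.83e-05). Ndufaf5, which hydroxylates Ndufs7, had 56.2, 53.5, 54.2, 63.4 and 53.1 CPM in fasted and 66.5, 75.5, 61.2, 71.2 and 64.7 CPM in fed wild type, overlapping by 1 fasted library (-0.27 ± 0.073, edgeR adjusted p = 0.00202). Ndufaf3, the partner of Ndufaf4, and Ndufaf2 did not pass (0.08 ± 0.070 with edgeR adjusted p = 0.309, and -0.01 ± 0.090 with edgeR adjusted p = 0.90).

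Fasting of cKO neurons gave the same counts among subunits, with 33 of 37 higher, 2 lower and 2 not passing (26.0% of all tested genes were higher and 27.0% lower, 53.1% in all). The median was 0.46, against -0.03 for all genes. The fasted libraries lay above the fed ones without overlap for 31 subunits and below for 3, where the shares of all genes were 20% and 19.6%. Among core subunits 4 rose and 2 fell (median 0.19), in the membrane arm 17 of 18 rose (median 0.53) and in the matrix arm 13 of 16 rose and 2 fell (median 0.36). Over all members and both genotypes, 36 were called higher in both, 2 lower in both, Ndufs1 among them, and Ndufv1, Ndufa10 and Ndufaf3 passed in neither. The joint shares of all tested genes were not counted. They cannot exceed the cKO shares of 26.0% higher and 27.0% lower. Ndufs1 had 156, 151, 163, 182 and 171 CPM in fasted and 225, 232, 217, 211 and 203 in fed cKO (-0.40 ± 0.080, edgeR adjusted p = 1.12e-04). The fasted and fed cKO groups did not overlap.

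Among the subunits with the smallest p in cKO were Ndufa1 (0.84 ± 0.061, edgeR adjusted p = 5.05e-12), Ndufa4 (0.81 ± 0.059, edgeR adjusted p = 7.13e-12), Ndufa12 (0.81 ± 0.062, edgeR adjusted p = 1.62e-11) and the membrane-arm subunit Ndufb2 (0.68 ± 0.056, edgeR adjusted p = 5.19e-11). Ndufa12 had 336, 403, 342, 314 and 316 CPM in fasted cKO and 185, 186, 206, 188 and 208 in fed cKO. Ndufs4, whose loss causes a Leigh-like brain disease in mice, rose by 0.68 ± 0.061 (edgeR adjusted p = 3.13e-10), with 338, 367, 356, 309 and 311 CPM in fasted and 207, 215, 207, 205 and 213 CPM in fed cKO. Neither gene had overlapping groups. Ndufa3 (0.61 ± 0.054, edgeR adjusted p = 2.79e-10) and Ndufab1 (0.31 ± 0.054, edgeR adjusted p = 1.83e-05) rose too, the second not with the GC and median transcript length offset (0.053, edgeR adjusted p = 0.455). Ndufv1 had 213 to 223 CPM in fasted and 227 to 248 in fed cKO, which did not overlap, but its log2 fold change of -0.11 ± 0.054 did not pass (edgeR adjusted p = 0.0822). It passed with upper-quartile scaling (-0.15) and with fasted replicates 3 to 5 alone (-0.11, edgeR adjusted p = 0.0452). Ndufa4l2 rose by 1.00 ± 0.292 (edgeR adjusted p = 0.0052), although its fasted cKO libraries (2.27 to 5.44 CPM) overlapped the fed ones (0.971 to 2.79 CPM).

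Of the 7 assembly factors in cKO, 4 rose, none fell and 3 did not pass, with a median of 0.28, where 26.0% of all genes rose and 27.0% fell. With the GC and exon length offset 3 rose and 1 fell, where 3727 of all 13237 tested genes rose and 2936 fell. Ndufaf4, an early factor of the ubiquinone-binding part that works with Ndufaf3, rose by about as much as Ndufa4l2 and more than the other members. It had 112, 118, 104, 95.6 and 99.0 CPM in fasted cKO libraries, against 52.5, 54.6, 57.8, 46.3 and 52.1 in fed ones. All fasted values lay far above the fed ones, and the difference was 2.01-fold (95% interval 1.79 to 2.26; 1.01 ± 0.086, edgeR adjusted p = 1.37e-10). Ndufaf6 rose by 0.43 ± 0.087 (edgeR adjusted p = 1.50e-04) and Ndufaf1 by 0.39 ± 0.089 (edgeR adjusted p = 4.99e-04), close to their values in wild type, and Ndufaf1 did not pass with the GC and exon length offset (0.106, edgeR adjusted p = 0.313). Ndufaf2, a late factor that helps to attach the NADH-oxidizing tip, rose by 0.28 ± 0.089 (edgeR adjusted p = 0.00844), with 42.1, 46.7, 41.7, 49.8 and 42.7 CPM in fasted and 37.5, 33.1, 38.4, 36.0 and 38.1 CPM in fed cKO. The groups did not overlap, but 65.6% of its exon bases face a gene on the opposite strand. Ndufaf7 (0.06 ± 0.063, edgeR adjusted p = 0.474), Ndufaf5 (-0.05 ± 0.073, edgeR adjusted p = 0.627) and Ndufaf3 (0.09 ± 0.070, edgeR adjusted p = 0.287) did not pass.

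**Figure D3:**
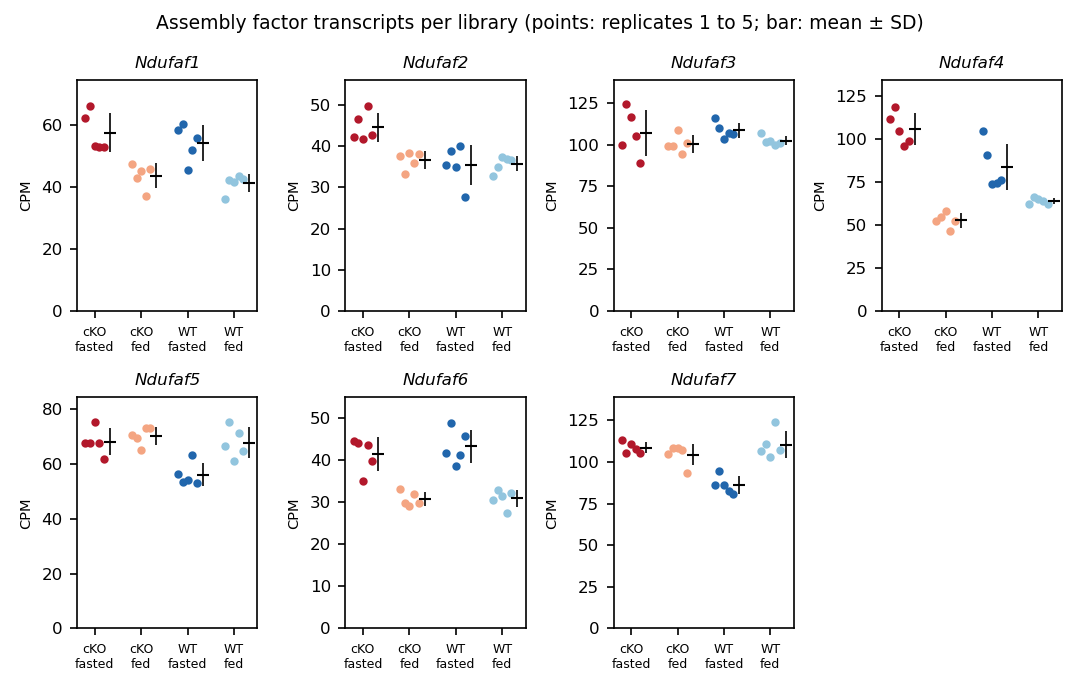
CPM of the 7 assembly factors in each of the 20 libraries (points, replicates 1 to 5 from left to right within a group; bars, mean ± SD, n = 5), with axes from 0. Ndufaf4 is highest in fasted cKO (95.6 to 118 CPM), and Ndufaf7 is lowest in fasted wild type (80.8 to 94.5 CPM).

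The distance between the classes was widest in fasted wild type. Averaged over log2 CPM in each library, subunits stood above assembly factors by 2.16 ± 0.071 log2 units in fasted cKO, 2.07 ± 0.058 in fed cKO, 2.43 ± 0.059 in fasted wild type and 1.98 ± 0.030 in fed wild type (mean ± SD, n = 5). These distances are not per length. Every fasted wild-type library (2.365 to 2.522) lay above every library of the other groups, which reached 2.239 in fasted cKO. The subunit mean itself was 8.31 ± 0.092 in fasted cKO, 7.90 ± 0.058 in fed cKO, 8.39 ± 0.049 in fasted wild type and 7.84 ± 0.038 in fed wild type. The assembly factor mean was 6.15 ± 0.075, 5.83 ± 0.037, 5.96 ± 0.088 and 5.86 ± 0.037 in the same order. The median log2 fold change of the subunits exceeded that of the assembly factors by 0.18 with fasting in cKO and by 0.51 with fasting in wild type. With the GC and exon length offset these differences were 0.08 and 0.20, and the one between fasted genotypes was -0.24 with the offset and -0.32 without it.

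**Figure D4:**
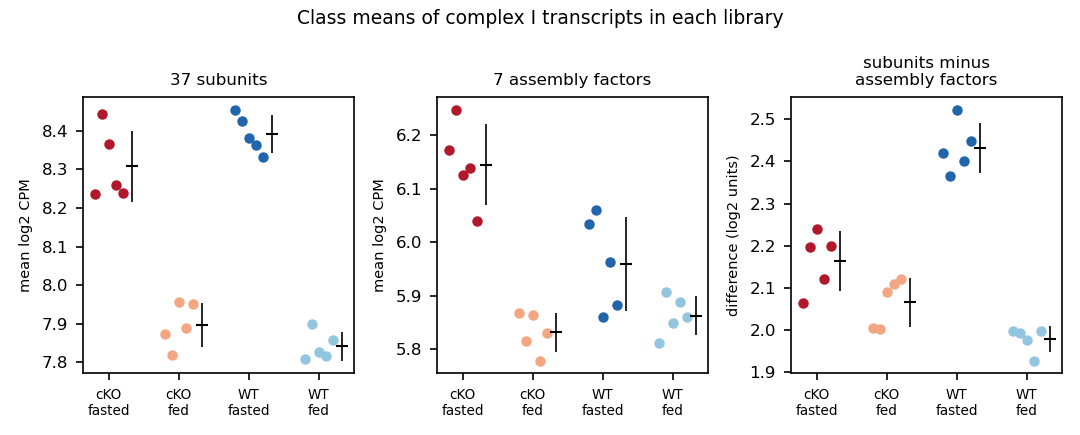
Mean log2 CPM of the 37 tested subunits (left) and the 7 assembly factors (middle) and their difference (right) in each library, by group (points, replicates 1 to 5; bars, mean ± SD, n = 5; the axes do not start at 0). The difference is highest in fasted wild type (2.365 to 2.522 log2 units), and the assembly factor mean is highest in fasted cKO.

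The size of the fasting rise depended on how base composition and length were handled. With a smooth offset per library for GC content and exon length, 28 subunits rose and 2 fell in cKO (median 0.25), and 24 rose and 5 fell in wild type (median 0.24, against 0.60 without). With this offset 3727 of all 13237 tested genes rose and 2936 fell in cKO (median 0.03). In wild type 4088 of all genes rose and 3761 fell (median 0.01). With the median transcript length in place of exon length, an alternative chosen after seeing the data, 30 rose and 2 fell in cKO (median 0.42), and 31 rose and 2 fell in wild type (median 0.46). There 3634 of all tested genes rose and 3025 fell in cKO, and 4031 rose and 3868 fell in wild type. Subunit genes are short, with a median transcript length of 695 bases against 1465 for all tested genes, and the assembly factors have 759. Across the 37 subunits the fold change in wild type had a rank correlation of -0.16 with median transcript length and -0.33 with exon length, and across all matched genes -0.11 and -0.10 (a description over genes, which share their libraries). With GC content it was -0.141 across the subunits and -0.145 across all matched genes. In cKO the values across all matched genes were -0.11 (median transcript length), -0.086 (exon length) and -0.234 (GC content). Ndufa1 changed sign under the exon-length offset in wild type (-0.15), as did Ndufa2, Ndufa8, Ndufb3 and Ndufb6. Ndufs1 remained called lower and Ndufa12 and Ndufa4 called higher in both genotypes under every alternative run.

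**Figure D5:**
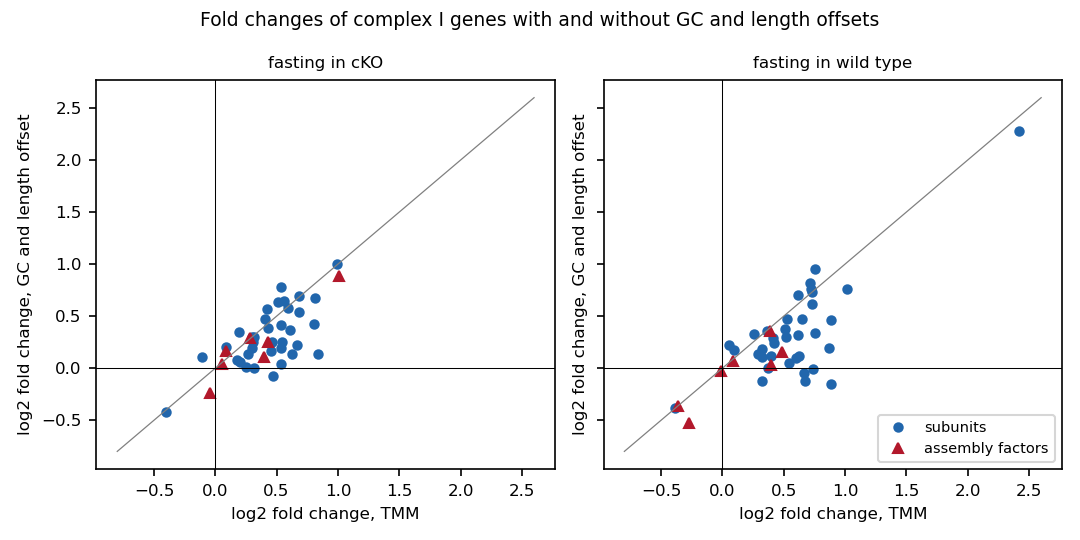
Log2 fold change with fasting under TMM scaling (horizontal) and with GC and exon length offsets (vertical) for complex I genes, in cKO (left) and wild type (right), with subunits as circles and assembly factors as triangles and the line of equality in grey. Most subunits lie below the line in wild type, where the subunit median is 0.24 with the offsets and 0.60 without, and Ndufs1 stays below 0 on both axes.

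In fed mice, few complex I transcripts passed between genotypes. Among 37 subunits 1 rose and none fell (5.87% of all tested genes rose and 3.81% fell, 9.68% in all), and among 7 assembly factors 1 fell. The subunit median was 0.06 and that of the assembly factors -0.01, against 0.01 for all genes, and 5 subunits had non-overlapping groups with cKO above, where the share of all genes was 8.19%. In all 31 of 37 subunits had a log2 fold change above 0, as did 6797 of all 13237 tested genes (a description over genes, which share their libraries). The subunit median was -0.009 with the GC and exon length offset and 0.017 with the GC and median transcript length offset. A fit of the fed groups alone called 5 subunits higher (Ndufb3, Ndufa9, Ndufb9, Ndufc2 and Ndufv1), where it called 1518 of all 12973 tested genes higher. The subunit called in the fit of all groups was Ndufb3 of the membrane arm, with 291, 284, 315, 305 and 319 CPM in fed cKO and 263, 275, 272, 263 and 273 in fed wild type. All cKO libraries lay above the wild-type ones (0.17 ± 0.055, edgeR adjusted p = 0.0475). The assembly factor was Ndufaf4, with 52.5, 54.6, 57.8, 46.3 and 52.1 CPM in fed cKO and 61.9, 66.2, 65.1, 63.9 and 61.9 in fed wild type. All cKO libraries lay below the wild-type ones (-0.28 ± 0.086, edgeR adjusted p = 0.0391; 6.28% of all genes did not overlap in this direction). Ndufb3 lost its call in 14 and Ndufaf4 in 9 of 19 alternatives (adjusted p up to 0.905 and 0.117), and for each gene 9 of these left out 1 library. For the core subunit Ndufs1 the fold between fed groups was 1.01 (95% interval 0.904 to 1.12).

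In fasted mice, most of the assembly factors passed between genotypes and few subunits did. Of the 7 assembly factors 4 were higher in cKO and none lower, where 11.5% of all tested genes were higher, with a median of 0.28. Of the 37 subunits none was higher and 3 were lower, where 8.84% of all genes were lower (20.3% in either direction), with a median of -0.04. The subunit count is at the share of all genes, and with fasted replicates 1 and 2 alone 1 subunit was higher. Ndufaf7 had 113, 105, 111, 108 and 106 CPM in fasted cKO, against 86.3, 94.5, 85.9, 82.7 and 80.8 in fasted wild type. The groups did not overlap (5.05% of all genes lay fully above), and the log2 fold change of 0.34 ± 0.064 (edgeR adjusted p = 5.17e-04) kept its call under all 21 alternatives, with a largest adjusted p of 0.0399. Ndufaf2 was also free of overlap, with 42.1, 46.7, 41.7, 49.8 and 42.7 CPM in fasted cKO and 35.3, 38.9, 34.8, 40.1 and 27.7 CPM in fasted wild type (0.34 ± 0.091, edgeR adjusted p = 0.00912).

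Ndufaf4 (0.34 ± 0.086, edgeR adjusted p = 0.006) and Ndufaf5 (0.28 ± 0.074, edgeR adjusted p = 0.00803) were higher in fasted cKO with overlapping groups. Ndufaf4 had 112, 118, 104, 95.6 and 99.0 CPM in fasted cKO and 104, 90.3, 73.8, 74.5 and 75.9 in fasted wild type, so wild-type replicate 1 fell within the cKO range. With fasted replicates 1 and 2 alone, 2 assembly factors passed, and Ndufaf4 (0.25, edgeR adjusted p = 0.0828) and Ndufaf2 (0.275) were not among them. In a fit of the fasted groups alone, Ndufaf5 (edgeR adjusted p = 0.0509) and Ndufaf2 did not pass.

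The subunits lower in fasted cKO were Ndufa4l2, Ndufv3 and Ndufa3. Ndufa4l2 had 3.13, 5.44, 4.17, 2.84 and 2.27 CPM in fasted cKO, against 7.25, 9.30, 9.65, 11.0 and 8.5 in fasted wild type. The groups did not overlap (3.91% of all genes lay fully below), with a log2 fold change of -1.36 ± 0.271 (edgeR adjusted p = 7.66e-04), which did not pass with fasted replicates 1 and 2 alone (-0.93, edgeR adjusted p = 0.184). Ndufv3, a small subunit near the NADH-oxidizing site, had 317, 359, 332, 313 and 311 CPM in fasted cKO and 409, 385, 371, 370 and 348 in fasted wild type, with 1 cKO library inside the wild-type range (-0.21 ± 0.054, edgeR adjusted p = 0.00768), and did not pass with either GC and length offset (edgeR adjusted p = 0.0654 and 0.0538). Ndufa3 fell by 0.17 on the log2 scale (-0.17 ± 0.054, edgeR adjusted p = 0.0274) and lost its call in 10 of 21 alternatives. The fold between fasted groups was 0.996 for Ndufs1 (95% interval 0.893 to 1.11).

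The interaction asks directly whether the fasting change differed between genotypes. It passed with a positive sign for 2 of 7 assembly factors, where 8.87% of all tested genes were called with a larger change in cKO, and with a negative sign for 2 of 37 subunits, where 8.44% were called with a smaller one (17.3% in either direction). For Ndufaf4 the fasting change was 1.01 in cKO and 0.39 in wild type, a difference of 0.61 ± 0.121 (edgeR adjusted p = 7.65e-04). For Ndufaf7 it was 0.06 in cKO and -0.36 in wild type, a difference of 0.42 ± 0.090 (edgeR adjusted p = 0.0017). Both differences kept their call under all 31 alternatives, with largest adjusted p of 0.00212 for Ndufaf4 and 0.0165 for Ndufaf7. For Ndufa4l2 the change was 1.00 in cKO and 2.42 in wild type (-1.42 ± 0.403, edgeR adjusted p = 0.0142), and for Ndufv3 it was 0.42 in cKO and 0.71 in wild type (-0.29 ± 0.076, edgeR adjusted p = 0.00817). Ndufa4l2 did not pass with fasted replicates 1 and 2 alone (-0.99, edgeR adjusted p = 0.237), and Ndufv3 did not pass with either GC and length offset (largest edgeR adjusted p = 0.0531).

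The signs of the interaction lay on 1 side for the subunits. All 37 had a smaller log2 fold change with fasting in cKO than in wild type, by 0.01 to 1.42, while 53.0% of all tested genes did, and the median difference was -0.10 for subunits and -0.03 for all genes. Of these 37 differences 35 did not pass on their own. The count was 37 with each of the other scalings and filters without offsets, 33 with fasted replicates 1 and 2 alone, 32 with replicates 3 to 5 alone, 28 with the GC and median transcript length offset and 19 with the GC and exon length offset. Of the 7 assembly factors 6 had a larger change in cKO, and this count was 7 with either offset and 4 with upper-quartile scaling.

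Genes that work beside these members were followed in 4 lists. Of the assembly factors without an Nduf symbol, 10 of 13 were found in the table by the symbols searched. Coa1, Dmac1 and Dmac2 were not found by these symbols, and rows under older symbols were not taken into this list. Atp5sl, an older symbol of Dmac2, held 277 to 842 counts per library and was left out. With fasting in cKO 2 of the 10 rose and 5 fell (median -0.25), and in wild type 1 rose and 5 fell (median -0.21). The shares of all tested genes were 26.0% higher and 27.0% lower in cKO and 29.6% and 31.3% in wild type, and these shares stand behind every fasting count of the 4 lists. Tmem126b and Acad9, partners of Ndufaf1 in building the membrane arm, changed by -0.51 ± 0.082 and -0.59 ± 0.124 in cKO (edgeR adjusted p = 5.94e-06 and 2.25e-04) and by -1.17 ± 0.084 and -0.83 ± 0.124 in wild type (edgeR adjusted p = 1.71e-12 and 1.66e-06). Tmem126a rose in cKO (0.58 ± 0.084, edgeR adjusted p = 1.52e-06) and in wild type (0.38 ± 0.084, edgeR adjusted p = 3.33e-04). Timmdc1, also a membrane-arm factor, fell in cKO (-0.72 ± 0.159, edgeR adjusted p = 3.74e-04) and in wild type (-0.90 ± 0.160, edgeR adjusted p = 2.11e-05). Tmem126b was higher in fasted cKO than in fasted wild type (0.56 ± 0.086, edgeR adjusted p = 4.11e-05), and its interaction passed as well (0.66 ± 0.117, edgeR adjusted p = 2.39e-04). Foxred1 was lower in fasted cKO (-0.36 ± 0.098, edgeR adjusted p = 0.0099), and the interactions of Foxred1 (-0.40 ± 0.136, edgeR adjusted p = 0.0424) and Tmem70 (0.31 ± 0.099, edgeR adjusted p = 0.0291) passed. In all, 3 of the 10 were higher and 1 lower in fasted cKO than in fasted wild type (11.5% and 8.84% of all genes), and none passed between fed groups.

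Of 15 genes for iron-sulphur clusters and the disulphide relay of the intermembrane space, 9 rose and 2 fell with fasting in cKO, and 7 rose and 2 fell in wild type (median 0.24 in each). The scaffold gene Iscu rose by 0.39 ± 0.050 in cKO and 0.43 ± 0.050 in wild type, and Bola3, which helps to deliver clusters, by 0.62 ± 0.068 and 0.63 ± 0.068 (edgeR adjusted p from 6.61e-09 to 1.70e-07). The electron carrier gene Fdx1 rose in cKO (0.61 ± 0.101, edgeR adjusted p = 1.02e-05) and in wild type (0.97 ± 0.102, edgeR adjusted p = 3.36e-09), as did Glrx5 (0.44 ± 0.063 and 0.33 ± 0.063, edgeR adjusted p = 1.36e-06 and 4.92e-05). None of the 15 passed between genotypes or in the interaction. Of 14 regulators of mitochondrial biogenesis, 6 rose and 2 fell with fasting in cKO, where 26.0% and 27.0% of all genes did. In wild type 5 rose and 4 fell, near the shares of all genes there. Ppargc1a, the coactivator that drives this programme, rose in cKO (0.80 ± 0.152, edgeR adjusted p = 6.03e-05) and in wild type (0.67 ± 0.154, edgeR adjusted p = 4.90e-04). The related coactivator gene Ppargc1b fell in cKO (-1.25 ± 0.251, edgeR adjusted p = 1.33e-04), with 10 to 27 counts in fasted cKO libraries. The mitochondrial methyltransferase gene Tfb1m fell in cKO (-1.06 ± 0.177, edgeR adjusted p = 1.14e-05) and in wild type (-1.75 ± 0.189, edgeR adjusted p = 5.31e-09). Its relative Tfb2m, a mitochondrial transcription factor, rose in cKO (0.41 ± 0.087, edgeR adjusted p = 2.76e-04) and in wild type (0.94 ± 0.087, edgeR adjusted p = 3.03e-10). In fasted cKO against fasted wild type Tfb1m was higher (0.84 ± 0.200, edgeR adjusted p = 0.00367) and Tfb2m lower (-0.34 ± 0.087, edgeR adjusted p = 0.00605), and the Tfb2m interaction passed (-0.53 ± 0.123, edgeR adjusted p = 0.00312). Of 10 genes of other routes that bring electrons to ubiquinone, 2 rose and 5 fell in cKO, and 2 rose and 6 fell in wild type. Sdhb of complex II rose in both (0.41 ± 0.048 and 0.53 ± 0.048, edgeR adjusted p = 3.73e-08 and 1.49e-10). Gpd2 of the glycerol phosphate shuttle fell in cKO (-0.60 ± 0.124, edgeR adjusted p = 1.84e-04) and in wild type (-1.26 ± 0.127, edgeR adjusted p = 1.47e-09). Etfdh, which brings in electrons from fatty acid oxidation, also fell in cKO (-0.27 ± 0.104, edgeR adjusted p = 0.0318) and in wild type (-0.92 ± 0.106, edgeR adjusted p = 1.97e-08). Gpd2 and Etfdh were higher in fasted cKO than in fasted wild type (0.45 ± 0.132 and 0.64 ± 0.109, edgeR adjusted p = 0.0161 and 1.45e-04). 1810043H04Rik, which RefSeq lists as the assembly factor gene Ndufaf8 and which the symbol rule does not take in, averaged 61.0 ± 3.27 CPM in fasted cKO, 45.1 ± 4.21 in fed cKO, 51.2 ± 7.13 in fasted wild type and 41.5 ± 2.23 in fed wild type.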

How the data were processed

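RNA of sorted AgRP neurons was copied with SMART-seq v4 and made into unstranded Nextera XT libraries, per the labels' protocols. Per the submitters' processing notes, Trimmomatic 0.36, HISAT2 2.1.0, featureCounts (Subread 1.6.2), DESeq2 1.20.0 and GRCm38 were used. The authors deposited raw counts per gene, which were used for every test. They also deposited a normalized signal, which equals the raw counts divided by DESeq2 size factors to within 5.09e-10, and which was used for this check only. Tests used edgeR 4.0.16 (quasi-likelihood, TMM scaling, limma 3.58.1, R 4.3.3) on all 20 libraries with 1 mean per group. Genes were kept by filterByExpr (minimum count 10, minimum total 15), which left 13237 of 23129 genes. P-values were adjusted by Benjamini-Hochberg over all tested genes, with a threshold of 0.05. CPM values are TMM-scaled, class means use a prior count of 2, and SE is the fold change divided by the root of the F statistic. The scripts were tested on simulated counts. Exon and transcript lengths came from GENCODE M21 (GRCm38) and promoters from RefSeq (GRCm38.p6). Alternatives were other scalings, filters, offsets for GC content and length (matched for 95.9% of tested genes), a replicate block, DESeq2 1.42.0, subsets of fasted replicates and leaving out each library. The members, gene lists and markers were chosen with earlier results of these data known. Some results are not reported here, although counts and medians cover all members. Named genes are the core subunits reported, the assembly factors, Ndufab1, Ndufa4, Ndufa4l2, members below the filter, up to 5 other subunits per direction and comparison with the smallest p past the threshold, subunits against the majority, and, from the up to 3 genes per list and comparison with the smallest p, those described. Intervals and floors cover counting or sample spread only.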

Additional observations from a re-analysis of the deposited data

Results flagged for a closer look

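In 4 members the fasting change differed between genotypes by the interaction test (edgeR). For Ndufaf4 the difference was 0.61 on the log2 scale (1.01 in cKO, 0.39 in wild type), and for Ndufaf7 it was 0.42 (0.06 in cKO, -0.36 in wild type). For Ndufa4l2 it was -1.42 (1.00 in cKO, 2.42 in wild type), and for Ndufv3 it was -0.29 (0.42 in cKO, 0.71 in wild type).

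In 5 of 184 groups of 5 libraries, 1 library lay far from the other 4, and chance gives this in about 1 in 20 groups. Replicate 2 of fasted cKO stood high for Ndufa2 (496 CPM, the others 399 to 423) and for Ndufb7 (331 CPM, the others 253 to 273). Replicate 5 of fed cKO stood low for Ndufaf7 (93.5 CPM, the others 104 to 109) and high for Ndufv3 (266 CPM, the others 235 to 243). Replicate 1 of fed wild type stood low for Ndufaf1 (36.3 CPM, the others 41.8 to 43.8).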

How the results depend on the processing

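Of 92 calls of a member in a comparison, 59 were kept by every alternative run and 33 were lost or turned under at least 1. With fasting in wild type, the GC and exon length offset gave 5 subunits lower and 1 assembly factor higher, and moved the difference of class medians to 0.20 (0.51 in the report). That difference was 0.31 with the GC and median transcript length offset (chosen after seeing the data), 0.57 with fasted replicates 1 and 2, 0.45 with replicates 3 to 5 and 0.46 without Ndufa4 and Ndufa4l2. With fasting in cKO the exon length offset gave 1 assembly factor lower and a difference of 0.08. Signs turned with the exon length offset for Ndufa1 (-0.15), Ndufa2 (-0.12), Ndufa8 (-0.12), Ndufb3 (-0.05) and Ndufb6 (-0.01) in wild type, for Ndufb3 in cKO (-0.08) and for the Ndufa1 interaction (0.29). With the transcript length offset they turned for Ndufc1 in cKO (-0.03) and wild type (-0.04) and for Ndufa6 in cKO (-0.01). The cause was not tested.

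Between fed groups, 0 subunits were higher with DESeq2 size factors, no filter, the replicate block and both offsets, 5 were higher in a fit of these groups alone, and 1 was lower with the exon length offset. Leaving out 1 library gave 0 to 1 subunits higher and 0 to 1 assembly factors lower. Between fasted groups, 6 subunits were lower with upper-quartile scaling, 1 was higher with fasted replicates 1 and 2, and 2 to 5 were lower leaving out 1 library (5 without fasted cKO replicate 2). There 2 assembly factors were higher with replicates 1 and 2 or with these groups alone, and the exon length offset gave a median difference of -0.24. In the interaction, 5 subunits were lower with upper-quartile scaling, 1 with either offset, 8 with fasted replicates 3 to 5 and 2 to 6 leaving out 1 library (6 without fasted cKO replicate 2), and 1 was higher with the exon length offset.

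Replicate numbers did not pair fed with fasted libraries or the fed genotypes. Correlations between same-numbered libraries ran there from -0.045 to 0.037, and 1 of 5 libraries in each comparison correlated best with its own number. Between the fasted genotypes they ran from 0.022 to 0.131 (mean 0.09, against -0.022 for other numbers), and 2 of 5 correlated best with their own number. With the replicate block the counts with fasting stayed at 33 subunits higher and 2 lower in each genotype. Over all genes, a fit of the fed groups alone called 1518 higher and 1434 lower in cKO (777 and 504 in the report), and a fit of the fasted groups alone 731 and 621, against 1517 and 1170, with 1014 and 668 from fasted replicates 1 and 2. Fasted replicates 3 to 5 gave 1810 and 1793 interaction calls, against 1174 and 1117. Upper-quartile scaling gave 1232 higher and 1575 lower between fasted groups, and the offsets gave 683 and 741 (exon length) and 668 and 706 (transcript length) between fed groups. Depth limits Ndufa4l2 most, at 14 to 98 counts.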
